A study of Mus musculus with 2 samples.

Results

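The 10 genes described here are those read most often as signs of an epithelial-to-mesenchymal transition (EMT) and of its counterpart in melanoma, phenotype switching. They are the transcription factors *Snai1*, *Snai2*, *Twist1*, *Zeb1* and *Zeb2*, the cadherins *Cdh1* and *Cdh2*, the mesenchymal proteins *Vim* and *Fn1*, and the receptor tyrosine kinase *Axl*. They were chosen by name, and every probe on the microarray that carries one of these names was used, which gave 20 probes on 38 spots among the 41164 probes of 27790 genes or transcripts. None of the 10 genes was called 2-fold or more different between the dormant cell-derived line B16F1-GFP-D and its maternal line B16F1-GFP-M. Of all detected genes 5.03% were called. Under some other background corrections *Zeb1* was called lower. By the brightest probe of each, *Vim* was 1.56-fold higher in B16F1-GFP-D, *Snai2* was 1.31-fold higher and *Zeb2* was 1.35-fold lower. The median over all probes of a gene was closer to no difference, with a log2 ratio of 0.33 for *Vim* and -0.12 for *Zeb2*. For *Vim* this median takes in a probe that was not well above background in any channel. *Zeb1* stood above background in B16F1-GFP-M only. *Snai1*, *Twist1*, *Cdh1* and *Fn1* were not detected in either line by the rule given below, which asks for the same line on both arrays. Of these, only *Twist1* was well above background in no channel.

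In an epithelium, E-cadherin, the product of *Cdh1*, holds neighbouring cells together. The SNAI, ZEB and TWIST factors bind short DNA elements called E-boxes and repress *Cdh1*, while N-cadherin from *Cdh2*, the filament protein vimentin and the matrix protein fibronectin become more abundant. Melanocytes and melanoma cells are not epithelial, and in melanoma the same factors are known to divide: ZEB2 and SNAI2 accompany the differentiated state governed by MITF, whereas ZEB1, TWIST1 and AXL accompany the dedifferentiated, invasive state.

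Both lines are B16F1 mouse melanoma cells that carry a GFP plasmid, and both were grown untreated in the same serum-containing medium. B16F1-GFP-D arose from GFP+ cells sorted from the pooled organs of tumour-free C57BL6JRj mice, some of which had received irradiated GM-CSF-secreting cells and others irradiated control cells before the challenge. As a model it is limited in that it descends from 1 colony, that the sort still held GFP- host cells before cloning, and that the RNA is that of cultured cells and not of cells dormant in a mouse. RNA of both lines was bound to the same spots of 2 Agilent 2-colour microarrays on 1 slide. On array 1, B16F1-GFP-M was labelled with Cy5 and B16F1-GFP-D with Cy3, and on array 2 the dyes were exchanged.

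The labels name no separate cultures, so they count as 1 replicate per line and allow no test between the lines, and having only 2 of them limits how precise any value is. Every difference is given as a log2 ratio, with B16F1-GFP-D in the numerator and B16F1-GFP-M in the denominator, and with the standard deviation (SD, n = 2 arrays) between the arrays, which holds dye effects but no variation between cultures. Levels are normalized log2 intensities and are compared only between the lines, never between probes. A probe was detected when the same line was well above background on both arrays, and a gene was called when its brightest probe was detected and each array gave a difference of 2-fold or more with the same sign. The Cy5 channel had more spots well above background, 60.7% and 56.1% of all, against 44.1% and 45.0% in Cy3. By these rules 6 of the 10 genes were detected, 4 of them in both lines. None was called, against 5.03% of the 12539 detected genes, 3.09% being higher and 1.95% lower in B16F1-GFP-D. Probe by probe, 9 of the 20 were detected and 0 were called, against 4.16% of all 19140 detected probes.

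**Figure D1:**
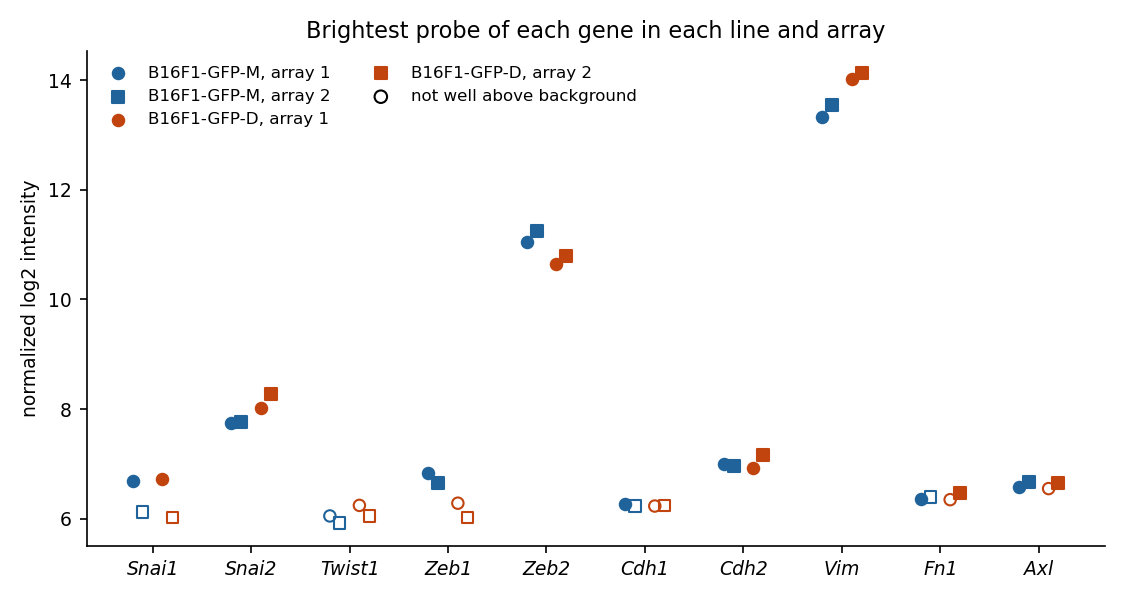
Normalized log2 intensity (vertical axis) of the brightest probe of each of the 10 genes (horizontal axis), with 1 point for each line on each array and no error bars. Open points were not well above background. The lines stand apart on both arrays for *Snai2*, *Zeb2* and *Vim*, and for *Zeb1* both B16F1-GFP-D points are open.

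Vimentin, the intermediate filament protein of mesenchymal cells, had the largest positive ratio among the 10 genes. The level of its brightest probe (mm9 chr2:13504232-13504291, plus strand) was 14.03 on array 1 and 14.13 on array 2 in B16F1-GFP-D, and 13.32 and 13.55 in B16F1-GFP-M. Both values of B16F1-GFP-D lay above both of B16F1-GFP-M. The log2 ratio of *Vim* was 0.71 on array 1 and 0.58 on array 2, with a mean of 0.64 ± 0.09 (SD, n = 2 arrays). This mean exceeded that of 90.5% of the detected genes, yet it stayed short of the 2-fold limit on both arrays, and the value of array 2 was also just under 1.5-fold.

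The other *Vim* probe (mm9 chr2:13498766-13498825, plus strand) was not well above background in any channel, and its log2 ratio was -0.11 on array 1 and 0.15 on array 2. It is shown because its first bases, in capitals, are GTAAGT, the letters of the consensus at the start of an intron, with which 5 of the 41174 probes counted before outlier spots were left out (0.0121%) begin. Whether it lies in an intron of *Vim* was not examined here.
Vim, other probe: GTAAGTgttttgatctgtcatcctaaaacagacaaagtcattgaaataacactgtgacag
Taking the median of both probes in place of the brightest one gave a *Vim* log2 ratio of 0.33.

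Vimentin is also abundant in fibroblasts, and the sort that founded the line held GFP- host cells. Of 10 fibroblast markers only *Col1a2*, a collagen I chain, was detected, with a log2 ratio of -0.33 ± 0.00 (SD, n = 2 arrays). Its other probe was not detected and had a mean of 0.10. *Col1a1*, the other collagen I chain, was not detected and went the other way, with 0.38 on array 1 and 0.41 on array 2 by its brightest probe. 7 of the 10, among them *Dcn*, *Lum*, *Pdgfra* and *Col3a1*, were not well above background in any channel. The summed linear intensity of the list was 768 and 779 in B16F1-GFP-D and 776 and 775 in B16F1-GFP-M, values made up mostly of the offset and of signal near background. The same sum over 10 keratinocyte markers was 4022 and 4617 in B16F1-GFP-D and 2840 and 2646 in B16F1-GFP-M, with *Sfn* the only one detected. The part of other cell types in the *Vim* ratio was not tested.

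*Zeb2*, which encodes a zinc-finger repressor, was measured by 5 probes. The level of the brightest (mm9 chr2:44842774-44842833, minus strand) was 10.65 and 10.78 in B16F1-GFP-D on arrays 1 and 2, and 11.04 and 11.26 in B16F1-GFP-M. Both values of B16F1-GFP-D were below both of B16F1-GFP-M, and the log2 ratio was -0.39 on array 1 and -0.47 on array 2. The mean of -0.43 ± 0.06 (SD, n = 2 arrays) was below that of most detected genes, 15.3% of which had a lower ratio. A second probe, detected in both lines, gave a mean of -0.38 ± 0.12 (SD, n = 2 arrays). The next pair, also detected in both lines, gave smaller means of -0.12 and -0.06, and the last was not detected and had a mean of 0.05. The 5 probes thus disagreed in size, and their median was -0.12.

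*Zeb1*, the paralogue of *Zeb2*, could be measured in the maternal line only. Its brightest probe had a level of 6.84 and 6.65 in B16F1-GFP-M, well above background on both arrays, and of 6.28 and 6.02 in B16F1-GFP-D, well above background on neither. The unnormalized spot signal in B16F1-GFP-M was 183 over a local background of 81.0 on array 1, and 60.7 over 19.5 on array 2. In B16F1-GFP-D it was 44.3 over 22.0 on array 1 and 102 over 80.5 on array 2, close to background in whichever dye it carried. Its measured log2 ratio was -0.55 on array 1 and -0.63 on array 2. A bound that limits how low the dim level may be read, described under the processing, put *Zeb1* 1.43-fold lower in B16F1-GFP-D. It was 1.32-fold on array 1 alone and 1.55-fold on array 2 alone, where it equals the measured ratio. The bound is therefore an estimate and not a strict minimum.

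The size of the *Zeb1* difference, but not its direction, depended on how background was removed. The offset of 50 added to each signal shrinks the ratios of dim spots, and with an offset of 0 the mean log2 ratio was -1.73 and the bound was 2.30-fold. In the log ratios of the scanner software the mean was -3.02. *Zeb1* was called lower with these corrections, and was the 1 gene of the 10 called under any alternative. The other *Zeb1* probe was not well above background in any channel, with a mean log2 ratio of -0.08.

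*Snai2*, the gene of the repressor SLUG, had 1 probe (mm9 chr16:14709361-14709420, plus strand). Its level was 8.02 and 8.27 in B16F1-GFP-D on arrays 1 and 2, against 7.75 and 7.76 in B16F1-GFP-M. Both values were higher in B16F1-GFP-D, and the log2 ratio was 0.28 on array 1 and 0.51 on array 2. Its mean of 0.39 ± 0.17 (SD, n = 2 arrays) lay above that of 81.9% of the detected genes. The sign held under all 9 alternatives for which a ratio of *Snai2* was computed, between 0.28 and 0.54. These are not 9 separate checks. Aquantile scaling between arrays and the median of its 1 probe leave the reported ratio as it was. The series value table repeats the scanner software's ratio in rounded form.

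**Figure D2:**
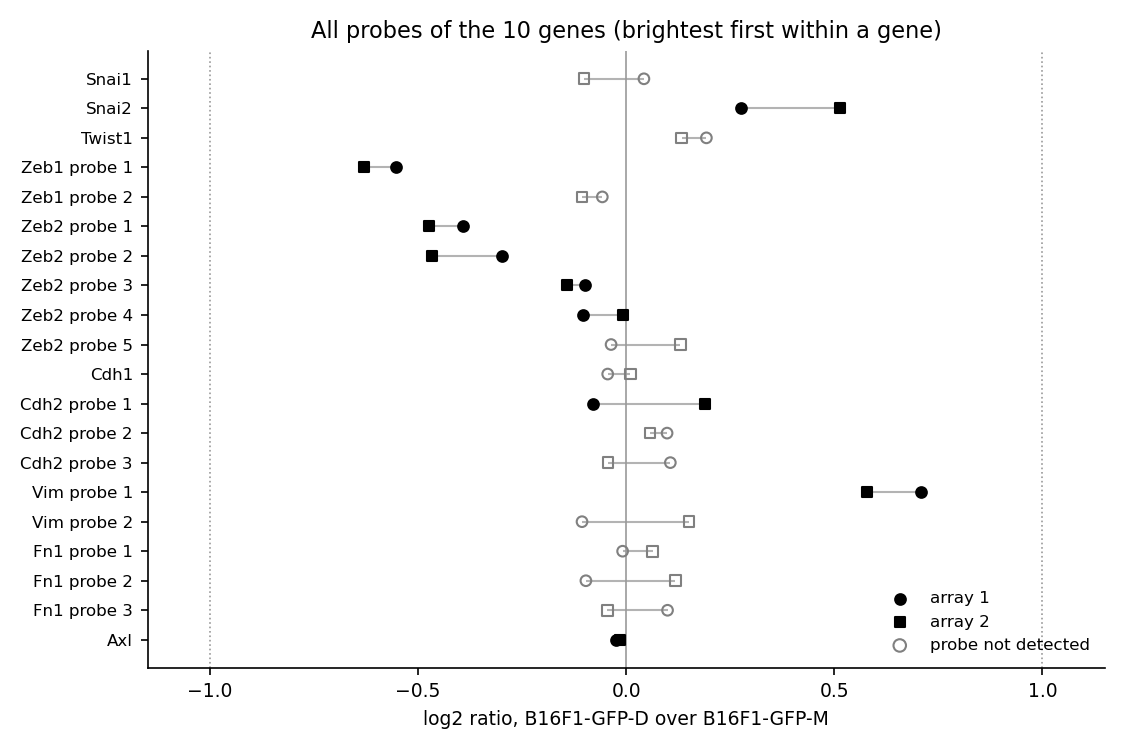
Log2 ratio, B16F1-GFP-D divided by B16F1-GFP-M (horizontal axis), for each of the 20 probes of the 10 genes (vertical axis), with 1 point per array joined by a line, open where the probe was not detected. Dotted lines mark 2-fold. No probe reaches them. The brightest *Vim* probe lies at 0.71 and 0.58, and that of *Zeb1* at -0.55 and -0.63.

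*Snai1*, which encodes the repressor SNAIL, was near the limit of detection. Both lines were well above background on array 1, with levels of 6.73 in B16F1-GFP-D and 6.69 in B16F1-GFP-M, and neither was on array 2, with 6.02 and 6.12. The arrays thus differed more than the lines did, and the log2 ratio was 0.04 and -0.10. *Twist1*, a basic helix-loop-helix factor, was not well above background in any channel, and a difference between the lines was not measurable.

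RefSeq promoter sequences of assembly GRCm38.p6, from 250 bases before to 50 after a transcription start, were at hand for *Snai1*, *Twist1*, *Zeb2* (4 starts), *Vim* and *Axl*, and not for *Snai2*, *Zeb1*, *Cdh1*, *Cdh2* and *Fn1*. They were searched on both strands for CACCTG, the E-box bound by SNAI and ZEB factors, for CACGTG, that bound by MITF, and for the general form CANNTG, which includes both. Of all 32851 promoters in the table, 20.2% hold CACCTG, 7.15% hold CACGTG and 72.3% hold CANNTG. Of the promoters of the set only that of *Snai1* had a match, a single CACCTG that begins at position -126, counted from the start, and is also its 1 CANNTG. Its 250 upstream bases (chr2:167537945-167538194, plus strand) are printed with the E-box in capitals, beside the upstream bases of *Vim* (chr2:13574061-13574310, plus strand) and of the first *Zeb2* start (chr2:45117443-45117692, minus strand), which, of the detected genes with a promoter at hand, had the ratios farthest from 0.
Snai1: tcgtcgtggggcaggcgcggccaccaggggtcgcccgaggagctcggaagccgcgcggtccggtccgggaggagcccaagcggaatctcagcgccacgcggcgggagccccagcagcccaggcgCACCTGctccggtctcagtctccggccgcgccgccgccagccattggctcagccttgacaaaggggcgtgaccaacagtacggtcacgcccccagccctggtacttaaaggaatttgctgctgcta
Vim: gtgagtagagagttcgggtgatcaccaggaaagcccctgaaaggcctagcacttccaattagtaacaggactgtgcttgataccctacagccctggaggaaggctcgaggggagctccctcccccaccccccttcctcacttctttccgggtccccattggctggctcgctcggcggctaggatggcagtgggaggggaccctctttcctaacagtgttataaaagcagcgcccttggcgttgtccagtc
Zeb2: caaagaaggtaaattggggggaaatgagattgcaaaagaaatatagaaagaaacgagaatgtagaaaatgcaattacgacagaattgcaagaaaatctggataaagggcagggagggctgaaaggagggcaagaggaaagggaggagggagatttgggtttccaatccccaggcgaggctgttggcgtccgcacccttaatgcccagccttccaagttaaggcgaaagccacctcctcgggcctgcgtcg
A match describes letters and not binding, and the arrays measured RNA only.

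No exchange within the cadherin pair that marks an EMT was measurable. N-cadherin, which joins mesenchymal and melanoma cells, was detected in both lines: the brightest *Cdh2* probe had levels of 6.92 and 7.16 in B16F1-GFP-D and of 7.00 and 6.97 in B16F1-GFP-M. These values overlap, and the log2 ratio was -0.08 on array 1 and 0.19 on array 2, with a mean of 0.05 ± 0.19 (SD, n = 2 arrays). The 2 other *Cdh2* probes were not detected, with means of 0.08 and 0.03.

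*Cdh1* had 1 probe (mm9 chr8:109193812-109193871, plus strand) printed on 10 spots. In B16F1-GFP-D none of its usable spots was well above background on either array. In B16F1-GFP-M this was so for 6 of 10 spots on array 1, where that line carried Cy5, and for 0 of 9 on array 2. The level was 6.23 and 6.24 in B16F1-GFP-D and 6.28 and 6.23 in B16F1-GFP-M. The spot-wise log2 ratios of *Cdh1* ran from -0.29 to 0.16 on array 1 and from -0.15 to 0.13 on array 2, which spans 0 on both.

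Fibronectin, a matrix protein and integrin ligand, was not detected by any of 3 *Fn1* probes. The brightest, on 10 spots, was well above background only in the line that carried Cy5: on 10 of 10 spots in B16F1-GFP-M on array 1, and on 9 of 10 spots in B16F1-GFP-D on array 2. In the Cy3 channel it was so on 0 of 10 spots of either array. Its level was 6.35 and 6.46 in B16F1-GFP-D and 6.36 and 6.40 in B16F1-GFP-M, and its log2 ratio was -0.01 and 0.06. Detection therefore followed the dye, and no difference between the lines was measurable at this low signal. The SD over the spots of this probe was 0.12 on array 1 and 0.11 on array 2, which holds no variation between cultures. The other 2 probes had mean log2 ratios of 0.01 and 0.03.

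All 3 *Fn1* probes are shown because none was detected although they read different places in the gene. On mm9, minus strand, they lie at chr1:71637422-71639659, chr1:71644127-71644186 and chr1:71673888-71674646. The first and the last cover 2238 and 759 bases of genome with 60 bases of probe, so that each joins separate stretches of the gene.
Fn1, brightest probe: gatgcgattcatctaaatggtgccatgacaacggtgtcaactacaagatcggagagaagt
Fn1, second probe: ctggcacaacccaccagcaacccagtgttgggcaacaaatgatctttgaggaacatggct
Fn1, last probe: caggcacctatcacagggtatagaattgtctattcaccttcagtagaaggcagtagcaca

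AXL, a receptor of the TAM family that is high in invasive human melanoma cells, was close to background in both lines. The level of its 1 probe (mm9 chr7:26542953-26543012, minus strand) was 6.55 and 6.65 in B16F1-GFP-D and 6.57 and 6.67 in B16F1-GFP-M. It was well above background in B16F1-GFP-M on both arrays and in B16F1-GFP-D on array 2. The log2 ratio was -0.02 on array 1 and -0.01 on array 2, with an SD of 0.01.

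Of 4 other genes of the TAM system, 3 were detected and 0 were called, with a median log2 ratio of 0.52 against -0.01 for all detected genes. *Gas6*, the ligand that activates AXL, was detected by the rule in B16F1-GFP-D only, at 0.59 ± 0.07 (SD, n = 2 arrays). In B16F1-GFP-M it was well above background too, but not on both arrays. *Gas6* was called higher with an offset of 0 and with the scanner software's ratio, the mean of the latter being 1.51. The receptor *Tyro3*, known in melanocytes, had a mean of 0.52 ± 0.13 (SD, n = 2 arrays) by its brightest probe, which is the list median itself. Another detected *Tyro3* probe gave 0.40, and the last, not detected, gave 0.05. *Pros1*, named to complete the detected genes, had 0.05 by its brightest probe and -0.18 by the other. *Mertk* was not detected.

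**Figure D3:**
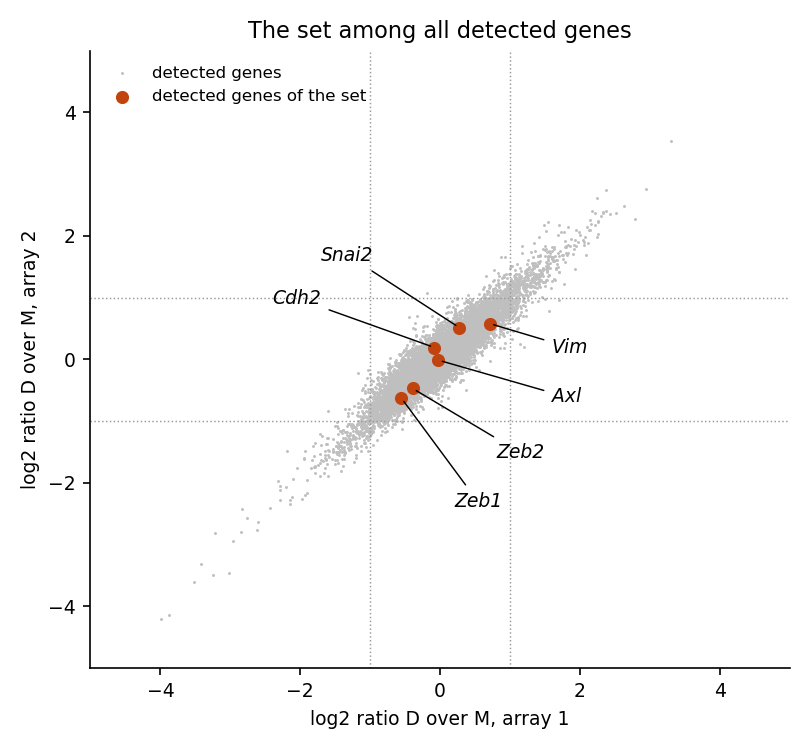
Log2 ratio, B16F1-GFP-D divided by B16F1-GFP-M, on array 1 (horizontal axis) against array 2 (vertical axis) for the 12539 detected genes (grey) and the 6 of the set that were detected (red). Dotted lines mark 2-fold. All 6 lie inside them, with *Vim* at the upper and *Zeb1* at the lower end.

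The same question was put to lists of genes that act around the 10. Of 151 such genes on the array 85 were detected, and 9 were called, 5 higher and 4 lower in B16F1-GFP-D, beside the 5.03% (3.09% higher, 1.95% lower) of all detected genes. Other EMT transcription factors held 3 of the called genes among 10 detected of 16, with a list median of 0.18. *Sox9*, a neural crest factor, had a log2 ratio of 1.46 ± 0.25 (SD, n = 2 arrays) by its brightest probe, 1.21 by the second and 0.22 by the last. *Id2*, an inhibitor of basic helix-loop-helix factors, rose by all of its 3 probes, with log2 ratios of 1.35, 1.38 and 2.73. *Foxc1*, a forkhead factor, fell, with a log2 ratio of -1.17 ± 0.03 (SD, n = 2 arrays).

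Epithelial genes stayed mostly undetected. Among 10 guardians of the epithelial state and splicing factors on the array 2 were detected, *Klf4* with a log2 ratio of 0.61 and *Klf5* with -0.13, and *Grhl2*, an activator of *Cdh1*, was not. Of 23 genes of epithelial junctions and keratins 5 were detected and 0 were called, with a median of -0.05. *Tjp3*, which encodes a tight junction scaffold, had a log2 ratio of -0.29. *Epcam* and the P-cadherin gene *Cdh3* were not detected. Of 6 catenin genes, which link cadherins to the cytoskeleton, 4 were detected and 0 were called, with *Ctnnbip1* at -0.13 and *Ctnnd1* at -0.00. The 3 probes of *Ctnnb1*, the beta-catenin gene, picked after its values were seen, disagreed: the brightest gave 0.13, another 0.49, and the dimmest -1.27 on array 1 and -1.08 on array 2, past 2-fold on both.

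Among 23 further mesenchymal genes 10 were detected, with a median of 0.19, and 1 was called in each direction. *S100a4*, a calcium-binding protein of motile cells, rose, with a log2 ratio of 1.63 ± 0.03 (SD, n = 2 arrays). The mesenchymal cadherin *Cdh11* fell by its brightest probe, with a log2 ratio of -1.81 ± 0.07 (SD, n = 2 arrays), the only detected one of 3. The 2 undetected *Cdh11* probes had means of -0.10 and 0.04, and the median of the 3 was -0.10. Of 9 integrin and syndecan genes listed as fibronectin receptors 7 were detected, with a median of 0.10. *Itgb5*, the integrin beta 5 chain, was called lower with a log2 ratio of -1.77 ± 0.24 (SD, n = 2 arrays). Whether the integrin that holds this chain binds fibronectin was not examined.

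TGF-beta is a known inducer of the EMT factors. Of 15 genes of this pathway 14 were detected and 0 were called, with a median of -0.11. The ligand genes *Tgfb1* and *Tgfb2* both had a log2 ratio of -0.16. The furthest from 0 in each direction by the smaller array value were *Skil*, a repressor of SMAD signalling, at -0.67 and the signal transducer *Smad3* at 0.54. The other *Skil* probe, also detected, gave -0.30, and the other *Smad3* probe, not detected, gave 0.23.

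**Figure D4:**
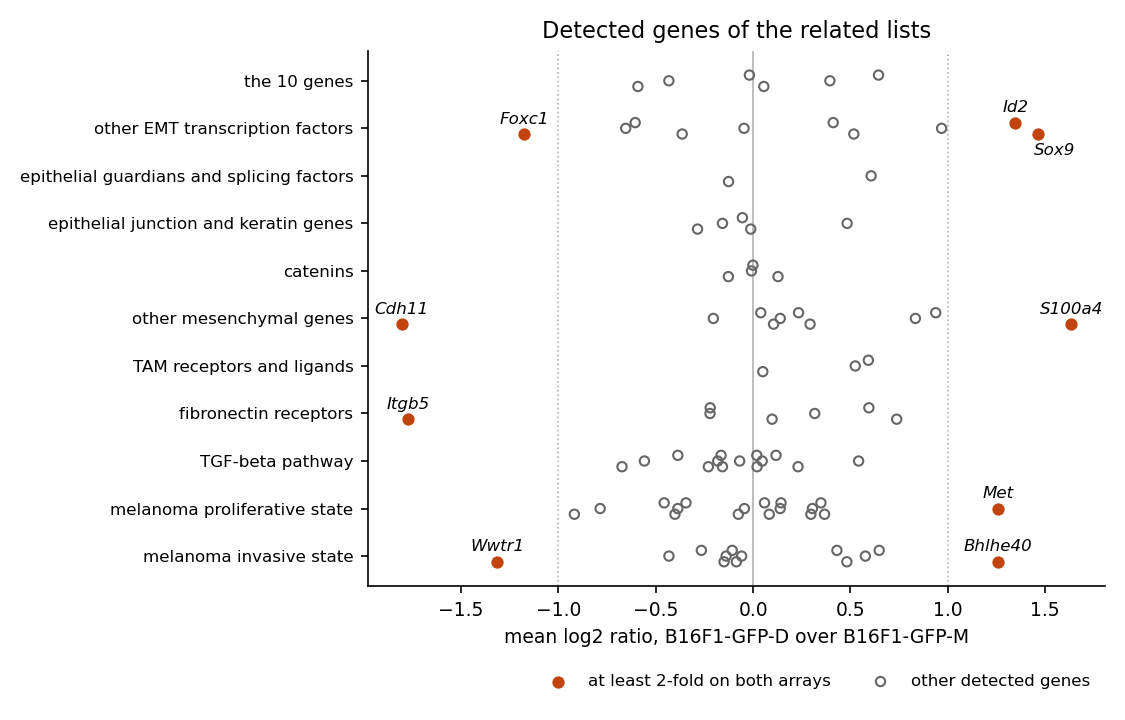
Mean log2 ratio, B16F1-GFP-D divided by B16F1-GFP-M (horizontal axis), of each detected gene of the set and of 10 related lists (vertical axis, with small vertical offsets for legibility). Filled, named points differed at least 2-fold on both arrays. There are 9, of which 5 were higher and 4 lower.

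The states of phenotype switching were read from a list for the proliferative and a list for the invasive state. The first served also as the check of the melanocytic identity of both lines, and 17 of its 19 genes were detected, with a median log2 ratio of 0.06. *Mitf*, the master factor of the melanocyte lineage, was at -0.95 in the ratio of array 1 and at -0.89 in that of array 2, with a mean of -0.92 ± 0.04 (SD, n = 2 arrays), below the 2-fold limit, and a second *Mitf* probe gave -0.51. *Sox10* had a mean of -0.34 by its brightest probe and of -0.04 by its second, and the pigment enzyme gene *Tyr* had -0.39. The probes of *Pax3* disagreed in sign. The brightest gave -0.02 on array 1 and 0.30 on array 2, with a mean of 0.14, and the second, also detected, gave a mean of -0.29. The hepatocyte growth factor receptor gene *Met*, a MITF target, was the 1 called gene, higher with a log2 ratio of 1.26 ± 0.04 (SD, n = 2 arrays), while its 2 other probes gave 0.85 and 0.90.

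Of 26 genes of the invasive state 13 were detected, with a median of -0.09. *Wnt5a*, the nerve growth factor receptor *Ngfr* and *Egfr* were not detected, and *Jun* had a log2 ratio of -0.11. *Bhlhe40*, a transcriptional repressor, rose, with a log2 ratio of 1.26 ± 0.07 (SD, n = 2 arrays). *Wwtr1*, which encodes the Hippo pathway coactivator TAZ, fell, with a log2 ratio of -1.31 ± 0.14 (SD, n = 2 arrays), and its second probe gave -1.01. All of these called genes lost the call when the arrays were centred on their medians in place of the loess fit, under which 64 genes were called in all. The means of the 9 genes over both arrays stayed past 2-fold under that setting, with log2 ratios from 1.30 to 1.68 for the higher and from -1.68 to -1.09 for the lower ones.

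**Figure D5:**
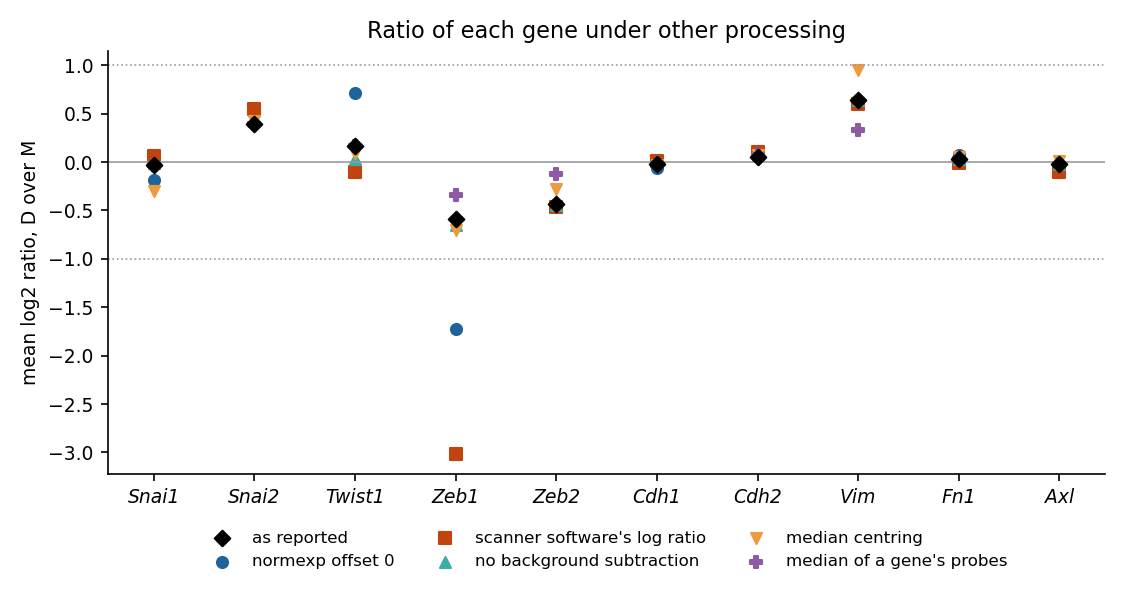
Mean log2 ratio, B16F1-GFP-D divided by B16F1-GFP-M (vertical axis), of each of the 10 genes (horizontal axis) as reported and under 5 other ways of processing the arrays. Solid and dotted lines mark no difference and 2-fold. *Zeb1* spreads from -0.34 to -3.02, whereas *Snai2* stays between 0.39 and 0.54 in these settings.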

How the data were processed

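RNA of both lines was compared on 2 dye-swapped Agilent 2-colour arrays. The authors' software, Agilent Feature Extraction 10.7.3.1, measured each spot's intensity and the background around it, and these values are not normalized. The deposited log10 ratios of Cy5 over Cy3, in the array files and, rounded, in the series value table, come from intensities that the authors' software had background-subtracted and scaled between dyes. They served as alternatives, changed to log2. Its flags were used for which spots stand well above background, and for outliers (143 and 176 on the arrays), which were left out.

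From 43379 spots that are not controls, normexp (offset 50) corrected the mean signal with the median local background, and loess followed within each array (limma 3.58.1 in R 4.3.3). Levels of each line were scaled between arrays by Aquantile. Replicate spots of a probe were averaged and counted as well above background when over 50% of the usable ones were. A gene was read from its brightest probe. Where 1 line was below background on both arrays, the bound compares the other line's mean level with the higher of the dim probe's level and the lowest level well above background, per array. Calls needed at least 2-fold on both arrays and are a rule of size, not a test. Names came from the RefSeq table of GRCm38.p6, in which the accessions of 27192 probes matched. *Grhl3* was not found under its name. Positions are those of the files, on mm9.

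The 10 genes and the lists were chosen with earlier results of these data known. Named are all 10, a fixed set of regulators, up to 4 called genes per list and direction, and, in a list without calls, up to 2 detected genes, and 1 gene that this rule names is not reported here. Alternatives were other background corrections, normalizations, filters, thresholds, the median of a gene's probes, the series value table and each array alone. The procedure was run on simulated arrays with planted changes past 2-fold in probes above a set brightness. That run does not cover dim probes or smaller differences. Python 3.11.15 with pandas 2.3.3, numpy 2.4.6 and matplotlib 3.10.9 produced tables and figures.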

Additional observations from a re-analysis of the deposited data

How the results depend on the processing

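Under 13 alternatives the count of the 10 genes called was 0 in all but 3: the scanner software's log ratio, an offset of 0 and the series value table each called 1 gene and 1 probe, *Zeb1*, as lower. With these 3 in turn the genes called in all were 1355, 1076 and 1351 instead of 631, those higher 758, 634 and 757, and those lower 597, 442 and 594, and the related lists held 8 genes called higher instead of 5. Median centring called 64 genes, 45 higher and 19 lower, and 0 of the related lists, and the cause was not tested. A 1.5-fold threshold called 1979 genes, 1098 higher and 881 lower, with 16 of the related lists, 9 higher and 7 lower. A 3-fold threshold called 123, 74 higher and 49 lower, with 3 of the lists, 1 higher and 2 lower. The median of a gene's probes ended the calls of *Cdh11* and *Met*. The signs of *Vim*, *Zeb1*, *Zeb2* and *Snai2* held under all 9 alternatives for which a ratio was computed, with *Vim* from 0.33 to 0.95 and *Zeb2* from -0.47 to -0.12. Those of the other 6 genes, *Snai1*, *Twist1*, *Cdh1*, *Cdh2*, *Fn1* and *Axl*, changed in at least 1. These 9 are not separate checks. Aquantile scaling left every ratio as it was, and the series value table repeats the scanner software's ratios in rounded form. The median of probes cannot change a gene with 1 probe. Chosen after seeing the data, the bound of *Zeb1* was recomputed on the log2 scale: it was -0.52 as reported, -1.20 with an offset of 0, -0.40 on array 1 alone and -0.63 on array 2 alone. Low signal over background limits the readings of *Snai1*, *Twist1*, *Cdh1*, *Fn1* and *Axl*, for which no difference was measurable. No paired analysis was possible because there is only 1 replicate per line.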

Other observations

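Markers of other cell types were mostly undetected in both lines. Of 10 leukocyte markers 3 were detected and 0 were called. *Cd68* was detected in B16F1-GFP-D only, with a log2 ratio of 0.44, and *Lyz2* had -0.11. Of 10 endothelial markers 2 were detected, *Vwf* in B16F1-GFP-D only with 0.72 and *Esam* with -0.01, while *Cdh5*, *Kdr* and *Tie1* were not well above background in any channel. *Cd68* and *Vwf* were well above background in B16F1-GFP-M too, but not on both arrays. Of 10 keratinocyte markers *Sfn* alone was detected, with 0.81 by its brightest probe and a median of -0.02 over its 3 probes, while *Krt5* and *Trp63* were not well above background in any channel.

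The following genes around the 10, none of them called, were picked after their values had been seen. *Id1* and *Pdgfrb* stood above background on both arrays in the dormant cell-derived line alone. By the bound used for *Zeb1*, which is not a strict minimum, *Id1*, an inhibitor of basic helix-loop-helix factors like *Id2*, was 1.94-fold higher there. *Pdgfrb*, a growth factor receptor of mesenchymal cells, was 1.68-fold higher by the same bound. Both were called higher with the scanner software's ratio (means of 3.46 and 4.10 on the log2 scale), with an offset of 0 (2.22 and 2.11) and in the series value table, and *Id1* also on array 1 alone. Among genes measured in both lines, *Acta2*, the smooth muscle actin gene, had log2 ratios of 0.93 and 0.94 by its brightest probe, whereas its 4 other probes were not detected.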
